A study of Mus musculus with 24 samples.

Results

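The cytosolic ribosomal protein genes were taken as the rows of the 24 RNA-seq count tables whose symbol began with Rpl or Rps and a number, together with Rplp0, Rplp1, Rplp2 and Rpsa and without the Rps6k kinase genes. Of 84 matching symbols among 23420, 80 had at least 10 counts in at least 2 libraries and were kept. They comprised 41 proteins of the large subunit, 31 of the small subunit, 3 of the ribosomal stalk, and 5 paralogs of another member (Rpl7l1, Rpl22l1, Rpl39l, Rps27l and Rps4y2). The 4 symbols under the minimum were Rpl10l, Rpl26, Rpl30 and Rpl3l. Beyond that minimum the rule used symbols only.

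Cytosolic ribosomes carry out protein synthesis, and each holds a single copy of most ribosomal proteins, so the cell needs their mRNAs in similar amounts. Many of these mRNAs begin at a C within a run of pyrimidines, the 5′ terminal oligopyrimidine (TOP) motif, through which mTOR and LARP1 control their translation. Ribosome production is high in dividing lymphocytes, and ribosomal protein genes have many processed copies (intronless pseudogenes) in the mouse genome.

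Polyadenylated RNA was sequenced in 24 libraries from adult C57BL/6 mice, 8 from Th2 cells and 16 from macrophages grown out of bone marrow (BMDMs). Th2 cells were made from naïve CD4+ T cells in culture with IL-4, from WT or TDG iKO mice, with 4 libraries of each. The TDG iKO mice carried Tdg fl/fl and CreERT2, a tamoxifen-activated Cre expressed in all tissues. BMDMs formed 2 cohorts of 8 libraries. One compared WT with TDG iKO, and the other compared WT with TET iTKO, in which floxed Tet1, Tet2 and Tet3 were deleted by the same CreERT2. Each genotype had 2 libraries unstimulated (0 h) and 2 libraries after 6 h of KLA (Kdo2-lipid A), a Toll-like receptor 4 agonist. Tamoxifen was given to Cre-carrying mice and controls alike, and the naïve T cells, but not the macrophages, were sorted for a reporter of Cre activity where the mice carried one.

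Assigned counts per library ran from 4982950 to 26657729. The 9 macrophage markers summed to between 317147 and 424838 normalised counts in BMDMs and between 121 and 641 in Th2 cells, and the 10 T cell markers to between 41287 and 50810 in Th2 cells and between 122 and 393 in BMDMs. Replicates 3 and 4 of each Th2 group differed by 1.34 and 1.51 chi-square units per gene, against 10.9 to 218 for other replicate pairs, so they were counted as 1 sample (n = 3) in means. The fits took them as separate libraries, so the SEs and intervals of fits with Th2 cells may be too narrow. The values with both summed into 1 library are given where they bear on a call. Tdg itself had at most 7 counts in any library, WT included, so its total did not check the deletion. The Tet counts cover whole genes, not the deleted exons, and did not check it either. One library, WT of the Tdg cohort at 0 h, replicate 2, stood apart. It was the shallowest, and 71 of the 80 ribosomal protein genes had their highest BMDM level in it.

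The start of transcription shows what many of these genes share in sequence. RefSeq (GRCm38.p6) gave promoter windows for 60 of the 80 members, from 250 bases before to 50 bases from the annotated start. In 15 of the 60 (25%) the start base lay within a run of at least 8 pyrimidines, against 3.81% of 27025 genes, and in 21 (35%) it was a C, against 16.2%. The 6 windows below run from 25 bases before the start to 25 bases from it, with the pyrimidine run that holds the start in capitals. They are shown because they hold long runs and serve both subunits and the stalk.
Rpl7a, chr2:26910782-26910831, plus strand: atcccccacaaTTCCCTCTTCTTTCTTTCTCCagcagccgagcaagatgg
Rpl27a, chr7:109519170-109519219, plus strand: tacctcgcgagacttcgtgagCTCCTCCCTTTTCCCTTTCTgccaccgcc
Rpl35, chr2:39005107-39005156, minus strand: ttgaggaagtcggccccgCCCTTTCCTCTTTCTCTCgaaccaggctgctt
Rpl15, chr14:18270962-18271011, minus strand: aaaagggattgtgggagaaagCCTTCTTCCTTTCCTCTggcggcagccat
Rps6, chr4:86857343-86857392, minus strand: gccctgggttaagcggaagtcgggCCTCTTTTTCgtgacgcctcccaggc
Rplp2, chr7:141447626-141447675, plus strand: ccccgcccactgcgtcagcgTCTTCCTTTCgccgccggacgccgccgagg

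None of the 4 paralogs with a window had such a run, and 3 of them are shown for contrast. The start base of Rpl22l1 and of Rps27l was a G, and that of Rpl7l1 was a C with purines on both sides, the single capital in its window.
Rpl22l1, chr3:28805483-28805532, plus strand: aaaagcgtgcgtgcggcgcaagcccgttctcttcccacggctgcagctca
Rpl7l1, chr17:46782632-46782681, minus strand: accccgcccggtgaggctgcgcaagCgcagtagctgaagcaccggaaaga
Rps27l, chr9:66946061-66946110, plus strand: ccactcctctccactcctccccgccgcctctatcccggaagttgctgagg

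An annotated start can lie some bases from the start used in these cells, so a run that was not found says only that the letters are not at the annotated base. On either strand of the whole 300-base windows, the ETS family motif CCGGAAG was in 24 of 60 members (40%), against 9.12% of all genes. The GC box GGGCGG was in 37 (61.7%), against 35.9%. The YY1 motif GCCATCTT was in 5 (8.33%), against 2.88%, and the TATA motif TATAAA was in 6 (10%), against 14.2%. These are matches of letters, not binding sites.

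Ribosomal protein transcripts took a several-fold larger share of the library in Th2 cells than in BMDMs. The 80 genes together held 8.01% ± 0.196 (SD, n = 3) of the assigned counts in WT Th2 cells and 8.50% ± 0.665 (n = 3) in TDG iKO Th2 cells. The ribosomal RNA precursor gene Rn45s took 0.347% to 8.34% of the counts of a Th2 library, and without it in the total the shares were 8.23% ± 0.115 and 8.90% ± 0.799. In BMDMs the share had group means (n = 2 each) from 1.18% ± 0.154 in WT BMDMs of the Tet cohort after KLA to 2.33% ± 0.728 in unstimulated WT BMDMs of the Tdg cohort. Every Th2 library, at 7.79% or more, lay above every BMDM library, at 2.85% or less. The cohorts also differed: the 8 libraries of the Tet cohort held 1.07% to 1.38%, and those of the Tdg cohort 1.13% to 2.85%. In bulk RNA, a lower level from fewer cells of a type and one from less RNA per cell cannot be told apart. Alignments to several places made up 30.9% to 32.2% of all alignments in Th2 cells and 16.6% to 25.8% in BMDMs, and their part in the difference was not tested.

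**Figure D1:**
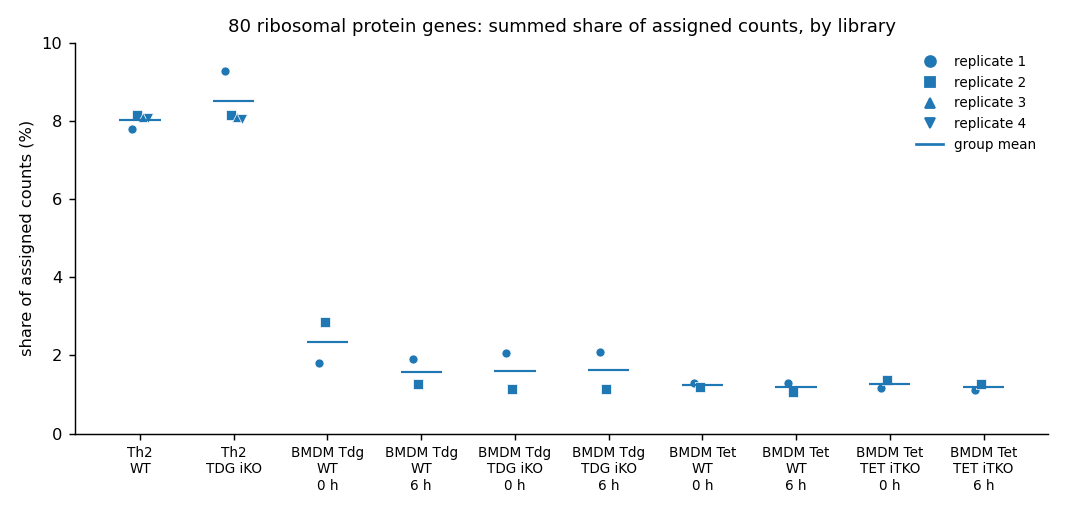
Share of assigned counts, in percent, held by the 80 ribosomal protein genes in each of the 24 libraries, by group (points, libraries; lines, group means). The 8 Th2 libraries lie at 7.79% to 9.26% and the 16 BMDM libraries at 1.07% to 2.85%, and the higher of the 2 points of unstimulated WT BMDMs of the Tdg cohort is the top BMDM library.

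Gene by gene, 76 of the 80 members had their highest group mean in a Th2 group. In 72 of them every Th2 library was above every BMDM library, and in 1, Rps4y2, every BMDM library was above every Th2 library. The widest ranges over the 10 group means, on the log2 scale, were those of Rpl22l1 (4.46), Rps4y2 (3.70), Rpl13a (3.31), Rpl12 (3.30) and Rpsa (3.26).

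Levels between genes were compared as normalised counts per kb of transcript, averaged over the 10 groups, for the 79 members with a length in GENCODE vM1. Of these, 72 lay within 4-fold of the median of 4837 per kb. The highest were Rplp1, a stalk protein, at 20120, followed by Rps14 (15595), Rpl32 (13365), Rps24 (12980) and Rpl8 (12863). The lowest were Rpl39l (7.08), Rps27 (23.5), Rpl34 (32.4), Rps4y2 (124) and Rpl17 (428). The stalk proteins, which are the lateral arm that recruits elongation factors, had a median of 11779 per kb (3 genes), the small subunit 6561 (31 genes), the large subunit 4035 (40 genes) and the paralogs 686 (5 genes). Some transcript models are longer than the mRNA usually given for the gene, such as that of Rps20 with 3706 bases, and the level per kb is then too low.

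The lowest members differed in how much of their coding sequence also occurs elsewhere in the genome. Each member's coding sequence was cut into 50-base windows, and a window was called shared if it occurred unchanged elsewhere in the genome (mm9). The median member had 90.3% of its coding windows elsewhere, 28 of 79 had all of them elsewhere, and 23 had at least 1 other place that held 90% of them. Mitochondrial ribosomal protein genes, whose products are of similar size, had a median of 0% (76 genes). Read pairs that aligned to several places were not assigned to genes by the authors' counting, so the levels of these genes are uncertain. Rps27, a zinc-finger protein of the small subunit, had every coding window elsewhere and between 2 and 42 counts in every library. Rpl26 had 0 counts in all 24 libraries, with 87.4% of its windows elsewhere, which allows up to 3 counts per library. Rpl30 had at most 11 counts, with 83.3% of its windows elsewhere. The shares of Rpl26 and Rpl30 were below that of the median member. One window of each is shown because these core genes were nearly uncounted. It is the coding window found at the most other places, so its count of places is the highest for the gene.
Rps27, gene at chr3:90016593-90017573 (mm9), minus strand, found at 5 other places: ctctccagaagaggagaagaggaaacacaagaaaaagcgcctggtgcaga
Rpl26, gene at chr11:68715085-68720491 (mm9), plus strand, found at 6 other places: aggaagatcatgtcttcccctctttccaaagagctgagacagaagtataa
Rpl30, gene at chr15:34370260-34373395 (mm9), minus strand, found at 15 other places: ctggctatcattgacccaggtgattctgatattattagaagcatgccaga

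Copies did not go with a low count in every case. Rps12 and Rps28 also had all their coding windows elsewhere, and their levels were 5796 and 9395 per kb. Members with at least 80% of coding windows elsewhere (55 genes) had a median of 4102 per kb, with a range of 23.5 to 10419. Those with under 20% were only 5 genes, with a median of 7442 and a range of 7.08 to 12863. The low paralogs Rpl39l and Rps4y2 were among these 5. Over the 79 members the level per kb and the share of windows elsewhere had a Spearman correlation of -0.38, given as a description over genes that share their libraries.

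**Figure D2:**
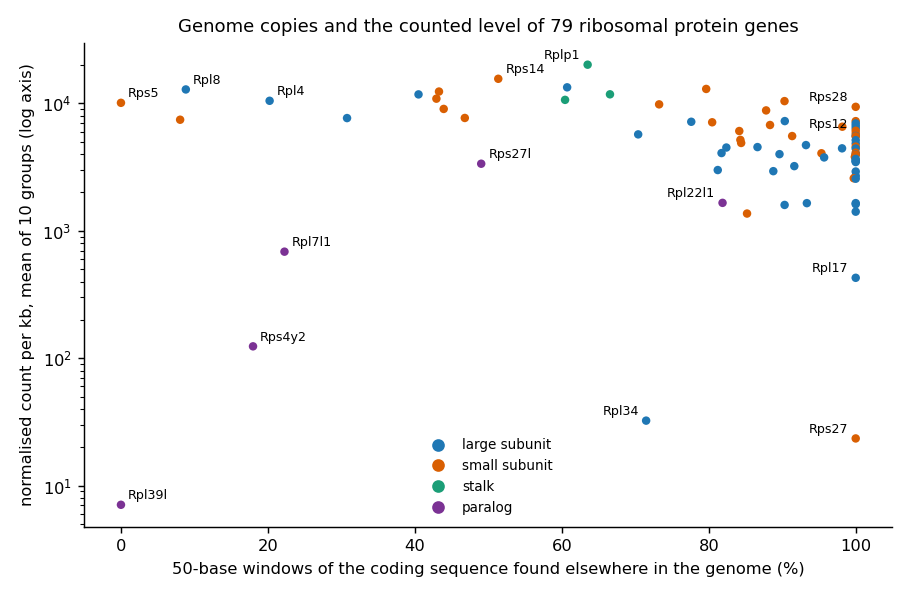
Mean normalised count per kb over the 10 groups (log axis) against the percentage of coding windows of 50 bases that occur elsewhere in the genome, for the 79 members with a transcript length (points, genes). Rps27 and Rpl34 lie far below the other core proteins, at 23.5 and 32.4 per kb, and Rps28 with 100% of windows elsewhere lies at 9395.

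To ask which members set the cell types apart, the 4 WT Th2 libraries were compared with the 4 unstimulated WT BMDM libraries of both cohorts. By DESeq2 with adjusted p under 0.05, 76 of the 80 members were higher in Th2 cells and 1 was lower, where 62.3% of the 13710 genes tested were called, 34% higher and 28.3% lower. The members' median log2 fold change was 1.75, against 0.16 over all genes tested. With Th2 replicates 3 and 4 summed, 75 were called higher and 1 lower, and the median was 1.78. The groups did not overlap for 73 members that were higher in Th2 cells, against 31.8% of all genes, and for 1 that was lower, against 25.5%. All 31 small subunit genes, all 41 large subunit genes and all 3 stalk genes were called higher, with medians of 1.89, 1.68 and 1.99. Both cell type and culture differ between these groups, and so do the 7 proliferation markers. They summed to between 36066 and 38724 normalised counts in WT Th2 cells and between 5001 and 11904 in unstimulated WT BMDMs. The parts of cell type, culture and proliferation in the difference were not tested.

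The size of the difference depended on the BMDM cohort. Against the Tdg cohort alone the median was 1.27 with 66 members called, where 51.7% of genes were called, and against the Tet cohort alone it was 2.18 with 77 called, where 62.7% were.

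**Figure D3:**
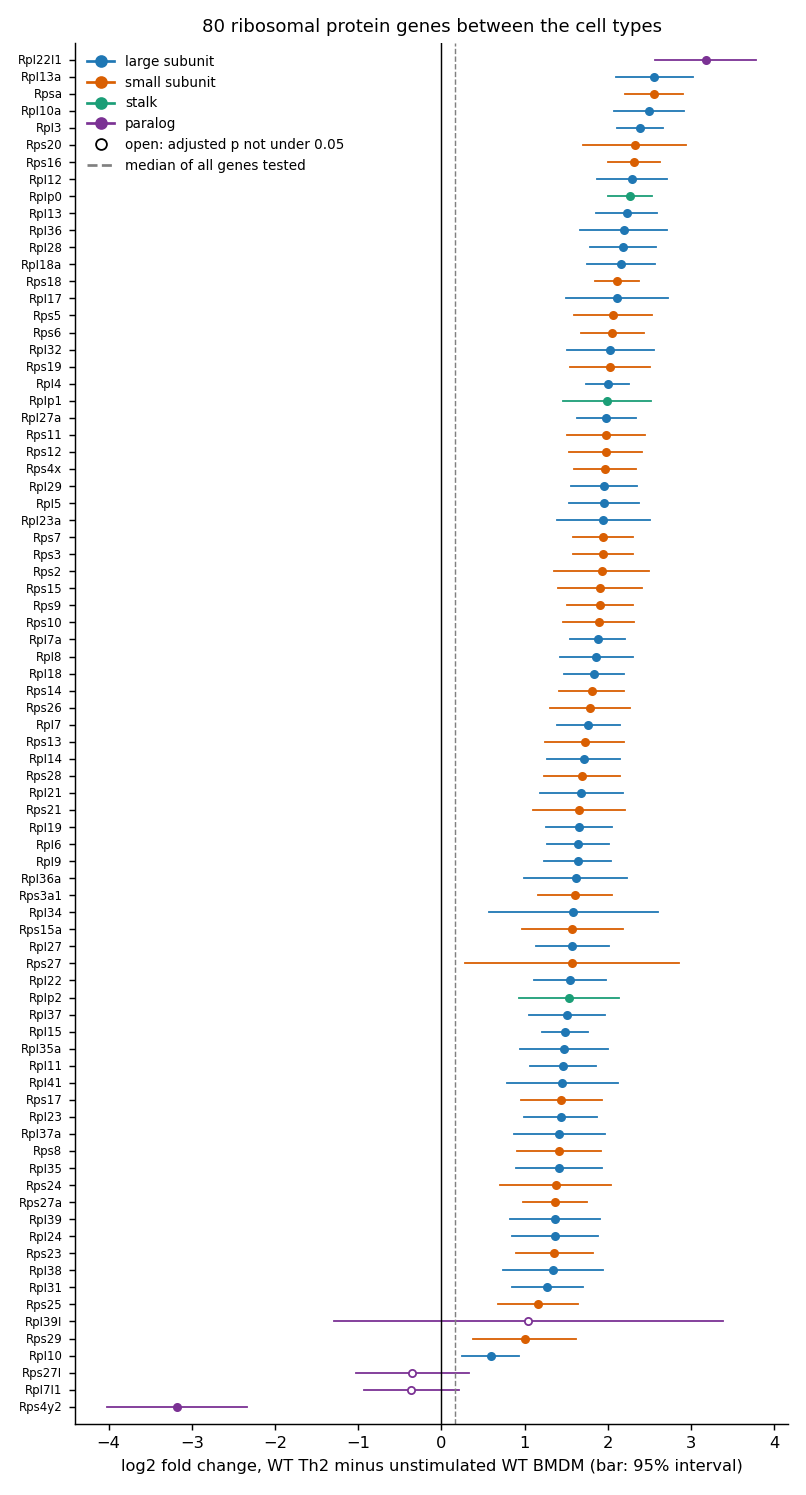
Log2 fold change of WT Th2 cells over unstimulated WT BMDMs for each of the 80 members, with 95% confidence intervals from DESeq2. All but 3, among them Rps27l and Rpl7l1, lie above 0, with Rpl22l1 at the top (3.18) and Rps4y2 at the bottom (-3.18).

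Rpl22l1, a paralog of Rpl22 whose protein can take the place of Rpl22 in the ribosome, showed the largest increase. Its normalised counts in WT Th2 replicates 1 to 4 were 3264, 2869, 2167 and 2083. Unstimulated WT BMDMs of the Tdg cohort had 282 and 688, and those of the Tet cohort 172 and 169. The Th2 libraries were all above the BMDM libraries, and by DESeq2 (adjusted p = 6.5e-24) the log2 fold change was 3.18 (SE 0.308). Its partner Rpl22 had 8847, 7951, 7960 and 7435 in Th2 cells, against 2553 and 4516 in BMDMs of the Tdg cohort and 2329 and 1967 in those of the Tet cohort. Rpl22 was also higher in every Th2 library, by a log2 fold change of 1.54 (SE 0.220).

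Rpl13a, a large subunit protein also known for a role outside the ribosome in silencing inflammatory mRNAs, came next among the increases. Its normalised counts were 39756, 37111, 35226 and 34443 in Th2 cells, against 5994 and 11777 in BMDMs of the Tdg cohort and 4613 and 4067 in those of the Tet cohort. The highest BMDM library, the Tdg cohort's replicate 2, was still far below every Th2 library, and by DESeq2 (adjusted p = 4.5e-26) the log2 fold change was 2.56 (SE 0.237). Rpsa, the small subunit protein that is also the laminin receptor precursor, rose by the same log2 fold change of 2.56 (SE 0.175), from between 2352 and 6185 in BMDMs to between 20348 and 22530 in Th2 cells. Rpl10a, a large subunit protein, followed at 2.5 (SE 0.213).

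The stalk proteins moved less evenly. Rplp0, the base of the stalk, had 37736, 41138, 39614 and 40355 normalised counts in WT Th2 cells and 10055, 11743, 6605 and 5854 in unstimulated WT BMDMs, a log2 fold change of 2.27 (SE 0.133). For Rplp1 it was 1.99 (SE 0.268), and for Rplp2 it was 1.53 (SE 0.307). Rplp2 had 3379 in replicate 1 and 9584 in replicate 2 of the Tdg cohort's WT BMDMs. Against the Tdg cohort alone, Rplp2 had a log2 fold change of 0.79 that did not pass (DESeq2 adjusted p = 0.093).

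Several members are known from signalling, from disease or from their place in the ribosome. Rps6, the substrate of S6 kinase, had a log2 fold change of 2.06 (SE 0.191), and Rps19, the gene most often mutated in Diamond-Blackfan anaemia, had 2.03 (SE 0.245). Rpl5 and Rpl11, which with 5S rRNA bind MDM2, differed in size, at 1.95 (SE 0.216) and 1.46 (SE 0.203). Rps15a had 1.57 (SE 0.311), and Rpl3, which forms part of the peptidyl transferase centre, had 2.39 (SE 0.140). The smallest increases that passed were those of Rpl10, a late-joining protein of the large subunit, at 0.59 (SE 0.175), and of Rps29 at 1.00 (SE 0.316). Rpl10 did not pass against the Tdg cohort alone, where its log2 fold change was 0.32 (DESeq2 adjusted p = 0.28).

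Of the 4 members not called higher, all were paralogs. Rps4y2, which RefSeq names Rps4l, lies at chr6:148303178-148304120 (mm9, plus strand) and has 18% of its coding windows elsewhere. It had normalised counts of 22.4, 19.7, 14.0 and 15.8 in WT Th2 cells and 124, 393, 110 and 88.4 in unstimulated WT BMDMs. Every BMDM library was above every Th2 library, and by DESeq2 (adjusted p = 5.6e-13) the log2 fold change was -3.18 (SE 0.427). Its partner Rps4x, an X-linked small subunit protein, went the other way, at 1.96 (SE 0.189).

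Rps27l, a p53-responsive paralog of Rps27, was near the same level in both cell types. Its normalised counts were 2143, 2249, 1027 and 1033 in WT Th2 cells, and 1766, 3085, 1915 and 1539 in BMDMs. The Th2 libraries fell into a higher and a lower pair, replicates 1 and 2 against 3 and 4, on both sides of the lowest BMDM library. By DESeq2 the log2 fold change was -0.35 (SE 0.347, adjusted p = 0.39). With replicates 3 and 4 summed it was -0.17 (DESeq2 adjusted p = 0.69). It was -0.96 with replicates 3 and 4 alone, which amount to 1 sample and give no test, and 0.11 with replicates 1 and 2 alone (DESeq2 adjusted p = 0.75). A length correction of the counts also brought the difference past the threshold, at -0.62 (DESeq2 adjusted p = 0.022).

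Rpl7l1, a nucleolar paralog of Rpl7, showed the same split. It had 1750, 1924, 959 and 933 normalised counts in WT Th2 cells and 1988, 1867, 1655 and 1632 in BMDMs. By DESeq2 the log2 fold change was -0.36 (SE 0.292, adjusted p = 0.28), and -0.21 with replicates 3 and 4 summed (adjusted p = 0.57). It was -0.88 with replicates 3 and 4 alone, with no test, and 0.05 with replicates 1 and 2 alone (DESeq2 adjusted p = 0.80). Rpl7 itself rose by 1.77 (SE 0.194). Rpl39l, a paralog of Rpl39 known from testis, had at most 13 counts in any library, and its log2 fold change of 1.04 (SE 1.19) was not resolved, while Rpl39 rose by 1.36 (SE 0.274).

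The coding sequence of Rps27l is shown against that of Rps27, whose gene was nearly uncounted, because the level of one does not stand for that of the other. Over 255 coding bases they differed at 61 (76.1% identical), and their longest identical stretch was 11 bases. The first 90 coding bases are given, with the bases of Rps27l that differ from Rps27 in capitals.
Rps27: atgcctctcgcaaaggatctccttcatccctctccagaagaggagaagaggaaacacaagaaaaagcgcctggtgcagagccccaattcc
Rps27l: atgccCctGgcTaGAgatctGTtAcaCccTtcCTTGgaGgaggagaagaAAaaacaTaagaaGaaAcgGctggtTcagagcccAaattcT

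Rps27 had normalised counts of 12.7 to 18.4 in WT Th2 cells and 1.30 to 9.14 in unstimulated WT BMDMs, and by DESeq2 (adjusted p = 0.029) its log2 fold change was 1.57 (SE 0.659). That call was lost in most alternatives, among them the leaving out of any 1 WT Th2 library and the summing of replicates 3 and 4 (DESeq2 adjusted p = 0.11).

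**Figure D4:**
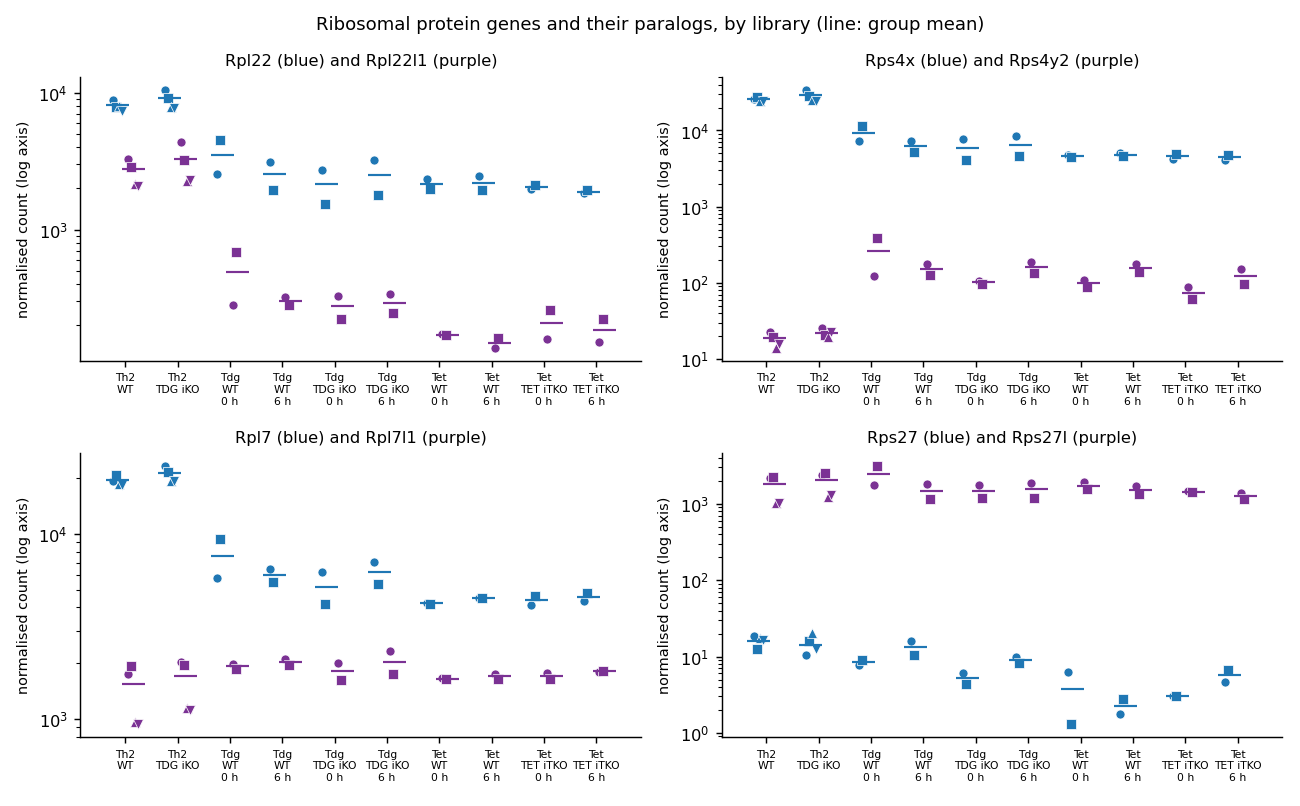
Normalised counts (log axis) of 4 paralogs (purple) and their partners (blue) in every library of the 10 groups (points, libraries; lines, group means). Rpl22l1 follows Rpl22 with a wider gap between Th2 cells and BMDMs, and between these cell types Rps4y2 runs opposite to Rps4x. Rpl7l1 and Rps27l stay between 933 and 3085 in all libraries.

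Other genes of protein synthesis were compared in the same fit, where 34% of all genes were called higher and 28.3% lower. Among ribosomal proteins with other symbols, Gnb2l1 (RACK1) at 1.88, Fau at 1.45 and Rpl36al at 1.06 were called higher in Th2 cells. Of 33 translation factors 19 were higher and 1 lower, with a median log2 fold change of 0.84. Eef1b2, an exchange factor of elongation, had 2.24 (SE 0.234), Eef2, the translocase, had 1.98 (SE 0.153), and Eif4e, the cap-binding factor, was lower, at -0.70 (SE 0.310). Of 73 ribosome biogenesis genes 33 were higher and 3 lower, with a median of 0.52 and with Dkc1 (2.15) and Npm1 (1.78) among those higher. The 75 mitochondrial ribosomal protein genes tested had 11 higher and 3 lower and a median of 0.04, and the 54 small respiratory chain subunits 10 higher and 4 lower and a median of 0.06. Of 17 growth regulators 7 were higher and 3 lower, with Myc, which drives ribosome production, at 3.27 (SE 0.201).

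Members with a pyrimidine run of at least 8 at their annotated start had a median log2 fold change of 1.71 between Th2 cells and BMDMs (15 genes), and the other members with a window one of 1.65 (45 genes). Members with the ETS motif had 1.57 (24 genes), and those without had 1.78 (36 genes).

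Whether TDG loss changes ribosomal protein mRNAs was asked first in Th2 cells. By DESeq2, 0 of 80 members passed, and so did 0 by edgeR, where 0.0126% of 15889 genes were called by DESeq2. A single member, Rpl23a, had an unadjusted p under 0.05, against 1.38% of genes, with a log2 fold change of 0.23 (SE 0.103). It was also the single member whose groups did not overlap, higher in TDG iKO, against 0.78% of genes higher and 0.768% lower. The members' median was 0.10, against -0.0041 over all genes, and 74 of the 80 were above 0. The 1113 genes of shortest exonic length had a median of 0.09 and the 1113 longest one of -0.08. Mitochondrial ribosomal proteins had a median of 0.10, small respiratory chain subunits 0.12 and ribosome biogenesis genes 0.11. Translation factors had 0.08 and growth regulators -0.07. The part of gene length in the shift was not tested. Without TDG iKO replicate 1, the library with the highest member share, the members' median was 0.02. The 95% intervals lay within a 2-fold change for 79 members and within 1.5-fold for 72. Rplp1, the member with the highest level per kb, had 26883, 26956, 27204 and 27823 normalised counts in WT and 27780, 25100, 25152 and 25245 in TDG iKO cells. The ranges overlapped through TDG iKO replicate 1, and the log2 fold change was -0.07 (SE 0.056). P-values here and below measure the spread between these samples, which may be in part technical.

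Th2 replicates 1 and 2 of both genotypes deviated together, as did replicates 3 and 4, and replicates 1 and 2 differed from 3 and 4. With replicates 3 and 4 alone, 25 members passed, 11 higher and 14 lower in TDG iKO, where 19.9% of genes were called, but replicates 3 and 4 of a genotype amount to 1 sample, so these calls are no test of TDG loss. The members' median there was -0.01, and with replicates 1 and 2 alone it was 0.19 with 0 called. A covariate was also set that separates replicates 1 and 2 from 3 and 4 by library number, a split that no label names as a batch. With it 4 members passed, where 8.15% of genes were called, Rps27l (0.23) and Rpl7l1 (0.19) among them. That fit too takes replicates 3 and 4 as separate. With both summed, 0 members passed by DESeq2, with or without the replicate block, and 2 with the block and 0 without it had an unadjusted p under 0.05.

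In unstimulated BMDMs of the Tdg cohort, 0 of 80 members passed by DESeq2 and 0 by edgeR, where 0.0% of 15026 genes were called. The members' median log2 fold change was -0.71, against 0.04 for all genes, and 78 members were below 0. An unadjusted p under 0.05 was found for 16 of the 80 members (Rps4y2, Rps24 and Rplp2 among them), against 1.76% of genes. The groups did not overlap for 6 members that were lower in TDG iKO (Rps4y2, Rpl23a, Rps27a, Rpl27, Rpl17 and Rps27), against 9.87% of genes, and for 0 that were higher, against 10.7%.

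Rplp2 and Rps24, both among the members with an unadjusted p under 0.05 by DESeq2, changed more than the median member. Rplp2 had 3379 and 9584 normalised counts in the 2 WT libraries and 3415 and 2396 in the 2 TDG iKO libraries. Rps24, a small subunit protein, had 3648 and 12426 in WT and 3785 and 3141 in TDG iKO. In both genes WT replicate 2 was far above the other 3 libraries, which lay close together. The summed share of all members was less even. It was 1.82% and 2.85% in WT replicates 1 and 2, and 2.07% and 1.13% in TDG iKO replicates 1 and 2. The log2 fold changes were -1.17 (SE 0.483) for Rplp2 and -1.23 (SE 0.492) for Rps24.

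Without WT replicate 2 the members' median was -0.19, with 0 called, and without WT replicate 1 it was -1.08, with 21 called lower, where 11.3% of genes were called. Without TDG iKO replicate 1 it was -1.14 and without replicate 2 it was -0.40, with 0 called in both. The direction was shared by short genes in general. The 1068 genes of shortest exonic length had a median of -0.51 and the 1068 longest one of 0.28, and a length correction of the counts brought the members' median to -0.34. Mitochondrial ribosomal proteins had a median of -0.53, small respiratory chain subunits -0.73, translation factors -0.32 and ribosome biogenesis genes -0.16. The 11 neutrophil and progenitor markers summed to 2693 and 697 normalised counts in the WT libraries and 8096 and 596 in the TDG iKO libraries, and none of the 11 was at 0 throughout. The parts of gene length, of depth and of these cells in the result were not tested.

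After KLA, TDG iKO and WT BMDMs were compared again. By DESeq2 0 of 80 members passed, and 0 by edgeR, where 0.0% of genes were called, and 0 had an unadjusted p under 0.05, against 0.226% of genes. The median was 0.01 (-0.35 to 0.30 with any 1 library left out), with 47 members above 0 and 33 below. The 95% intervals lay within a 2-fold change for 65 members, so a smaller change of most members was not detectable.

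The KLA response itself was asked of each genotype. In WT BMDMs of the Tdg cohort 0 members passed by DESeq2 and 0 by edgeR, where 8.6% of 11633 genes were called, and 2 (Rpl17 and Rpl23a) had an unadjusted p under 0.05, against 19.7% of genes. The median was -0.52, and it was -0.01 without the unstimulated WT replicate 2 and -0.89, with 16 called lower where 19.7% of genes were called, without replicate 1. Without WT replicate 1 at 6 h it was -0.78 and without replicate 2 it was -0.33. In the same response the 1068 genes of shortest exonic length had a median of -0.46 and the 1068 longest one of 0.27. Mitochondrial ribosomal proteins had -0.49 and small respiratory chain subunits -0.64. Translation factors had -0.07, ribosome biogenesis genes -0.10 and growth regulators 0.33. In TDG iKO BMDMs 0 passed by DESeq2 or edgeR, where 7.08% of genes were called, and 0 had an unadjusted p under 0.05, against 14.4% of genes. The median was 0.19, and it lay between -0.14 (without replicate 1 at 6 h) and 0.61 (without replicate 1 at 0 h) with 1 library left out. The difference of the 2 responses, which uses the same unstimulated WT libraries, had 0 members called by DESeq2 or edgeR, where 0.0% of genes were called, and 1 with an unadjusted p under 0.05, Rpl23a, against 0.246% of genes. For that difference the 1068 shortest genes had a median of 0.51 and the 1068 longest one of -0.32. Mitochondrial ribosomal proteins had 0.57 and small respiratory chain subunits 0.73. Translation factors had 0.33, ribosome biogenesis genes 0.18 and growth regulators -0.25. The members' median was 0.70, and 0.20 without the unstimulated WT replicate 2. Without replicate 1 in its place, 5 members were called higher, where 2.9% of genes were called.

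The Tet cohort had closer replicates and narrower intervals. In unstimulated TET iTKO against WT BMDMs 0 of 80 members passed by DESeq2 and 0 by edgeR, where 7.5% of 12200 genes were called. The median was -0.03, and the 95% interval lay within a 1.5-fold change for 73 members. Rps20 (0.33, SE 0.152) and Rpl10 (-0.22, SE 0.110) had an unadjusted p under 0.05, against 16.7% of genes. The groups did not overlap for 2 members that were higher in TET iTKO, against 27.1% of genes, and for 9 that were lower, against 26.4%. Rplp0 showed how close the groups were, with 6605 and 5854 normalised counts in WT and 5632 and 6811 in TET iTKO, the TET iTKO libraries lying on both sides of the WT libraries.

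After KLA, TET iTKO against WT again gave 0 of 80 members by DESeq2 and 0 by edgeR, where 6.58% of 11634 genes were called. The median was -0.08, and 73 intervals lay within a 1.5-fold change. Rpl10 (-0.23, SE 0.110) and Rpl21 (-0.34, SE 0.166) had an unadjusted p under 0.05, against 16% of genes.

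**Figure D5:**
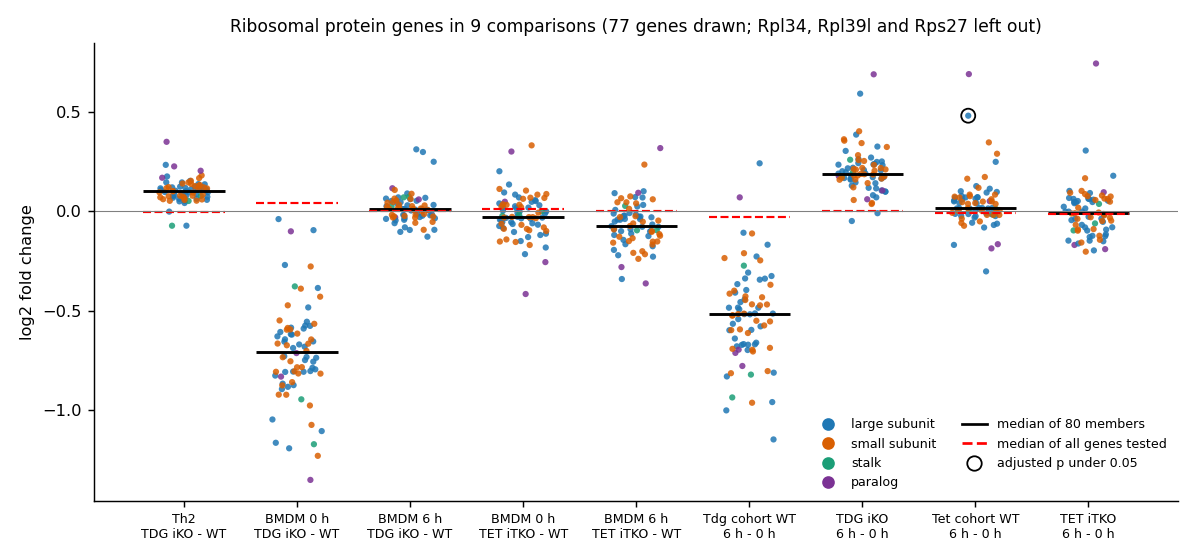
Distribution of the members' log2 fold changes in 9 knockout and KLA comparisons (points, 77 genes, without Rpl34, Rpl39l and Rps27; black lines, medians of all 80; dashed red lines, medians of all genes tested; ring, Rpl24, adjusted p under 0.05 by DESeq2). The unstimulated Tdg cohort and its WT KLA response are centred below 0, at -0.71 and -0.52, and the medians of the Tet cohort lie between -0.08 and 0.02.

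In WT BMDMs of the Tet cohort, 1 ribosomal protein gene passed as higher after KLA. Rpl24, a large subunit protein at the subunit interface, had 2087 and 1902 normalised counts in unstimulated WT BMDMs and 2924 and 2602 after KLA. Both stimulated libraries were above both unstimulated ones, and by DESeq2 (adjusted p = 0.0012) the log2 fold change was 0.48 (SE 0.127). It was the single member of 80 called in this fit, where 24.1% of 11917 genes were called and 13.1% were called higher, and edgeR called it too. An unadjusted p under 0.05 was found for 5 members, against 32.2% of genes. The groups did not overlap for 11 members that were higher after KLA, against 30.4% of genes, and for 3 that were lower, against 33.6%. Rps27a, a small subunit protein, had 0.34 (SE 0.140) and Rps9 had 0.29 (SE 0.117), and neither passed (DESeq2 adjusted p = 0.055 and 0.056). The members' median was 0.02. The call of Rpl24 was lost without the unstimulated WT replicate 2, where the log2 fold change was 0.41 (DESeq2 adjusted p = 0.079).

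In TET iTKO BMDMs Rpl24 went from 1890 and 2249 normalised counts to 2373 and 2732, so that both stimulated libraries were above both unstimulated ones, and its log2 fold change of 0.30 (SE 0.127) did not pass (DESeq2 adjusted p = 0.066). By DESeq2 0 of the 80 members passed, where 24.4% of 11352 genes were called, 0 passed by edgeR, and 2 (Rpl24 and Rps4y2) had an unadjusted p under 0.05, against 32.3% of genes. The median was -0.01. The change of the Rpl24 response by TET iTKO was -0.18 (95% interval -0.53 to 0.18). For that change 0 members passed by DESeq2 or edgeR, where 0.426% of genes were called, and 0 had an unadjusted p under 0.05, against 4.45% of genes. In the Tdg cohort, Rpl24 had 2547 and 5588 in unstimulated WT and 3614 and 3355 after KLA, and 2714 and 1970 in unstimulated TDG iKO and 3593 and 3414 after KLA. The WT groups overlapped through the unstimulated replicate 2, the TDG iKO groups did not overlap, and neither response passed.

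Among related genes, 5 of 33 translation factors rose with KLA in WT BMDMs of the Tet cohort and 0 fell, where 13.1% of all genes rose, so that the share was near the background. They were Eif4g2 (0.81), Eif6 (0.61), Pabpc1 (0.39), Btf3 (0.29) and Eif5 (0.25). In TET iTKO BMDMs 6 of 33 rose, where 1454 of 11352 genes did, Eif4g2 with the largest change (0.94). Of the 73 ribosome biogenesis genes 2 rose and 3 fell in WT, where 1556 and 1318 of 11917 genes did. Of 16 growth regulators tested, 3 rose and 3 fell in WT, with a median of 0.02, where 24.1% of genes were called. In TET iTKO 4 rose and 1 fell, where 24.4% of genes were called. Among these regulators Larp1, which binds TOP mRNAs, rose by 0.89 (SE 0.115) in WT and by 0.66 (SE 0.115) in TET iTKO. Myc fell by 1.42 on the log2 scale in WT (SE 0.322).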

How the data were processed

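The deposited files held raw counts of read pairs per gene symbol, which the authors made with HISAT2 alignment to mm9 and HTSeq counting, with DESeq2 1.30.0 named for their tests. Annotation and strand setting are not given in the sources used here. The tallies of unassigned pairs were left out of library sizes. Here DESeq2 1.42.0 (R 4.3.3; Wald test, Benjamini-Hochberg adjustment over all genes tested, threshold 0.05) was fitted to the Th2 libraries, to each BMDM cohort, and to WT Th2 with unstimulated WT BMDMs, and was tested on simulated data. Alternatives were edgeR 4.0.16 (quasi-likelihood, TMM), other scalings, a minimum of 10 counts in 2 libraries, a length correction, a replicate block, and leaving out libraries. Normalised counts used size factors over all 24 libraries. Same-numbered Th2 libraries deviated together (correlations 0.648 to 0.854). So did differently numbered ones, such as WT replicate 1 with TDG iKO replicate 2 (0.738) and WT replicate 3 with TDG iKO replicate 4 (0.849). The correlations follow the split of replicates 1 and 2 from 3 and 4 and do not establish a pairing by number. The numbers were still used as a block, and blocking changed no member call there. In the BMDM cohorts no label says what the numbers share, and the block is given with the alternatives.

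The members and gene lists were chosen with earlier results of these data known. Genes were named by role, by the 4 largest called changes in each direction, and by the 5 highest, lowest and most variable levels. Rpl3, Rpl10a, Rps29, Rps24, Rps12, Rps28, Rpl23a, Rps20, Rpl21, Rps27a, Rps9 and those in lists of 6 or fewer were named after their values were seen. A gene of the lists is not reported here.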

Additional observations from a re-analysis of the deposited data

Results flagged for a closer look

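A library of TDG iKO Th2 cells stood apart in 2 measures, each with a gap to the nearest library that was large for the range of its group. For the stalk gene Rplp1, replicate 1 had 27780 normalised counts, where the other TDG iKO Th2 libraries had 25100 to 25245, and the gap made up 0.946 of the range. For the summed share of assigned counts held by the 80 ribosomal protein genes, replicate 1 had 9.26%, where the lowest library had 8.05%, and the gap made up 0.915 of the range. Without the ribosomal RNA precursor gene Rn45s in the total, the shares of replicates 1 to 4 were 9.70%, 8.90%, 8.13% and 8.08%, and the library no longer stood apart by this measure. Chance gives such a gap in about 1 in 20 groups of 4 independent libraries. Replicates 3 and 4 of this group were counted as 1 sample elsewhere, so that rate does not apply here.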

How the results depend on the processing

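The count of members called between WT Th2 cells and unstimulated WT BMDMs was 76 to 77 with any 1 library left out, and the count of members highest in a Th2 group was 75 to 77. In TDG iKO Th2 cells, 4 members passed with a covariate that separates replicates 1 and 2 from 3 and 4 by library number. No label names that split as a batch. With replicates 3 and 4 only, 25 passed, but each genotype there amounts to 1 sample, so these calls are no test of TDG loss. With replicates 3 and 4 summed, 0 passed, with or without the replicate block. In the BMDM cohorts no label ties the replicate numbers to a shared animal or day, and there are 2 numbers a group. Same-numbered libraries of the Tdg cohort correlated at 0.310 to 0.756, and those of the Tet cohort at 0.0188 to 0.436. With a replicate block, TDG iKO against WT at 0 h still had 0 members called, and 54 in place of 16 had an unadjusted p under 0.05. The share of all genes was 1.76% in the main fit and is not given here for the block. With a replicate block, that is with the replicate number as a pair, 1 member passed for the KLA response of WT in the Tdg cohort, also with the block nested in genotype. For the KLA response of WT in the Tet cohort it was 2 with the replicate block, 5 with the block nested in genotype, 4 with the length correction, 4 with both the replicate block and the length correction, and 2 with the compared libraries alone. For that of TET iTKO it was 1 with the length correction, 1 with both and 1 with the nested block. In the main fits of these KLA responses, 8.6% of genes were called for WT of the Tdg cohort. The share was 24.1% for WT of the Tet cohort and 24.4% for TET iTKO. The shares of all genes called under the alternatives are not given here, so these counts are no result about the members. Leaving out 1 library gave 0 to 21 members for TDG iKO against WT at 0 h, 0 to 16 for the KLA response of WT in the Tdg cohort and 0 to 5 for its change by TDG iKO. It gave 0 to 1 for TET iTKO against WT at 0 h and at 6 h, 0 to 2 for the KLA response of WT in the Tet cohort and 0 to 1 for that of TET iTKO. Where a cause is not given by the construction of the alternative, the cause was not tested. The other 178 recomputed counts and summary values stayed within 1.5 times or the spread between replicates, and edgeR gave the same member counts as DESeq2 in every comparison. With 2 libraries a group, a left-out library leaves 1, which is assumed to vary like the others. Counting that drops read pairs with several alignments limits the level of every member with near-identical copies.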
